A study of Mus musculus with 9 samples.

Results

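Schlafen transcripts were followed across normal and leukemic mouse bone marrow on Affymetrix whole-transcript arrays. The family was taken as every gene whose single symbol in the array's gene table begins with Slfn and a digit, with Slfn1, Slfn2, Slfn3, Slfn4, Slfn5, Slfn8, Slfn9 and Slfn14 listed as members. Of these 8 genes, 7 were measured among 19938 genes, each by 1 probe set, a group of short probes that reads one transcript region. Slfn14 was matched to no named probe set and was not analysed here. Slfn10-ps and Slfn5os carry similar symbols, are annotated as non-coding RNAs in RefSeq, and are given separately. The 9 arrays form 3 groups of 3, all from C57BL6 mice and all from femur marrow. Wild type whole marrow came from 1 mouse per array, with no fractionation. Wild type lineage-negative marrow, from which cells with mature lineage markers had been depleted, came from 9 other mice in pools of 3 mice per array. ERG leukemia was the whole marrow of 3 mice transgenic for ERG, an ETS family transcription factor, killed once signs of a myeloid leukemia were seen. Neither the age and sex of the mice nor the promoter that drives the transgene is stated in the sources used here.

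Schlafen proteins are a mammalian family found mainly in cells of the immune system, and several of their genes are induced by type I interferon. The proteins share an amino-terminal core that in some members cuts or binds RNA, transfer RNA included. The short forms (Slfn1, Slfn2) hold little more than this core, the intermediate forms (Slfn3, Slfn4) extend it, and the long forms (Slfn5, Slfn8, Slfn9, Slfn14) add a helicase-like region. In mice the family was first described in developing T cells, and Slfn2 is known for keeping T cells and monocytes quiescent.

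The genes sit together on chromosome 11, in the order Slfn5, Slfn9, Slfn8, Slfn2, Slfn1, Slfn4, Slfn3 and Slfn14, with no other protein-coding gene between them in RefSeq. Slfn8, Slfn9 and Slfn14 lie on the minus strand and the others on the plus strand. RefSeq windows of 300 bases (250 before to 50 after the start site, build GRCm38.p6) were available for all 8 genes, and 4 motifs were searched on both strands. The ETS motif CAGGAAG was searched because ERG belongs to that class of factors; it was present in 4 of the 8 windows, those of Slfn1, Slfn2, Slfn3 and Slfn4, and in 13.3% of 32851 mouse promoter windows of the same length. The related ETS motif CCGGAAG was present in the Slfn4 window alone among the members and in 8.86% of all windows. Schlafen genes are close relatives, so matches in their windows are not independent of each other. The stretches from 100 to 31 bases before the start site are shown for the short and intermediate forms, with matches to either ETS motif on either strand in capitals, at chr11:83116720-83116789 for Slfn1, chr11:83065012-83065081 for Slfn2, chr11:83191230-83191299 for Slfn3 and chr11:83175086-83175155 for Slfn4, all plus strand.
Slfn1: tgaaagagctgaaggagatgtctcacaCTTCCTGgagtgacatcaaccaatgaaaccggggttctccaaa
Slfn2: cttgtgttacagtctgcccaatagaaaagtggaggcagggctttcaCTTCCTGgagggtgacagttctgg
Slfn3: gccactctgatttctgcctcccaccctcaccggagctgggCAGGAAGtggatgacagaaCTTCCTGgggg
Slfn4: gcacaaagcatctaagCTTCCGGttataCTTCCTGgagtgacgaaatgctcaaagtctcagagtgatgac

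The core of the interferon-stimulated response element, GAAANNGAA, was present in the windows of the long forms Slfn5, Slfn8, Slfn9 and Slfn14, 4 of 8 members, and in 8.56% of all windows. The gamma-activated site TTCNNNGAA was present in none of the 8 members' windows (0 of 8) and in 8.3% of all windows. No matches to different motifs overlapped. The Slfn8 and Slfn9 windows were identical at 248 of 292 aligned bases (84.9%), and both hold the same 9 letters of the response element core. RefSeq also gives another Slfn8 start site, with the window chr11:83020673-83020972, which was not aligned. Relative to that other start site the same match lies at -135 to -127, and at -47 to -39 from the one used here. The last 100 bases before the start sites used for Slfn8 and Slfn9 are shown because these genes, with such similar upstream sequence, had different levels across the groups. They lie at chr11:83020811-83020910 and chr11:82991831-82991930, minus strand. The stretch from 180 to 101 bases before the Slfn5 start site, at chr11:82951922-82952001 on the plus strand, holds that gene's 2 matches. Capitals mark GAAANNGAA on either strand. These matches describe letters in the reference, and binding was not measured.
Slfn8: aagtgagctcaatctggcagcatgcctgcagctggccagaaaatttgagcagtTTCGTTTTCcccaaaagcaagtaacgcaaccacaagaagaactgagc
Slfn9: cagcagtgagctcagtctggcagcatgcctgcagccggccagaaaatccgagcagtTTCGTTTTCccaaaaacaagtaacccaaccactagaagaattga
Slfn5: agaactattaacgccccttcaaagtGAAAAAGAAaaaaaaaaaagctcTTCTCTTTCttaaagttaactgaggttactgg

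All 9 arrays had similar medians, from 32.3 to 34.4, and correlations across genes within a group were 0.971 to 0.995. The median of all probe sets, 33.4, is taken here as a floor under which a signal may be background, so a fold against a group mean below it is held down by background. Intensities are linear RMA values, differences are log2, means are geometric, and SDs are over 3 arrays. Adjusted p-values are those of limma with Benjamini-Hochberg adjustment over 19938 genes, with 0.05 as the threshold. They set a difference between groups against the spread of arrays within groups. That spread is shared by all 3 groups, although lineage-negative arrays are pools of 3 mice and the others hold 1 mouse each. Probe sets differ in brightness for reasons other than transcript amount, so levels are compared between groups for 1 gene and never between genes. Because Schlafen genes are close relatives, some probes may read more than 1 of them; probe sequences were not used here. Marrow is a mixture, so fewer cells of a type and less RNA per cell cannot be told apart. The mouse Erg probe set read 128.6 to 194.4 in whole marrow, 93.9 to 129.2 in lineage-negative marrow and 73.2 to 97.2 in leukemia. It was lower in leukemia than in whole marrow (log2 difference -0.91 ± 0.18 SE, adjusted p = 0.00739). Whether that probe set reads the transgene is not given, so it does not check the labels. As a check of the fraction, 6 of 7 stem and progenitor cell markers rose in lineage-negative against whole marrow, beside 21.7% of all genes. Their sums were 2852 to 4042 against 1307 to 1592, and 1589 to 2584 in leukemia. The leukemia sums depend on Gata2, with means of 1013.9 in leukemia and 115.8 in whole marrow. In that comparison Gata2 was the 1 marker that rose, Cd34 (-0.99) the 1 that fell, and the median was -0.3.

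Of the 7 measured genes, 4 (Slfn1, Slfn2, Slfn4 and Slfn5) were highest in normal whole marrow, lowest in lineage-negative marrow and in between in ERG leukemia. A leukemia mean between the wild type means was thus found for 57.1% of the measured members, beside 53.6% of all 19938 genes. Between lineage-negative and whole marrow, 5 of the 7 measured genes fell (Slfn1, Slfn2, Slfn4, Slfn5 and Slfn8) and 0 rose, also 0 at an unadjusted p under 0.05 in limma, while 13% of all genes were called lower and 21.7% higher. In leukemia against whole marrow the same 5 genes fell, although the call of Slfn2 was lost without whole-marrow array 1 or 2, and again 0 rose by either count, against 9.93% of all genes called lower and 14.6% higher. In leukemia against lineage-negative marrow, 4 genes rose (Slfn1, Slfn2, Slfn4 and Slfn5), against 2.95% of all genes, and Slfn9 fell, against 5.74% of all genes called lower. The medians of the 7 differences in these comparisons were -2.92, -1.33 and 1.33, beside -0.03, -0.02 and 0.01 over all genes. Over all genes, higher calls made up 59.4% of calls for leukemia against whole marrow, 34.0% for leukemia against lineage-negative marrow and 62.6% for lineage-negative against whole marrow. After centring of arrays at the 75th percentile these shares were 44.7%, 46.8% and 44.7%, with all-gene medians of -0.125, 0.062 and -0.194, and with cyclic loess they were 45.5%, 49.5% and 47.7%. Each pair of comparisons shares 1 group of arrays, so their results are not independent.

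**Figure D1:**
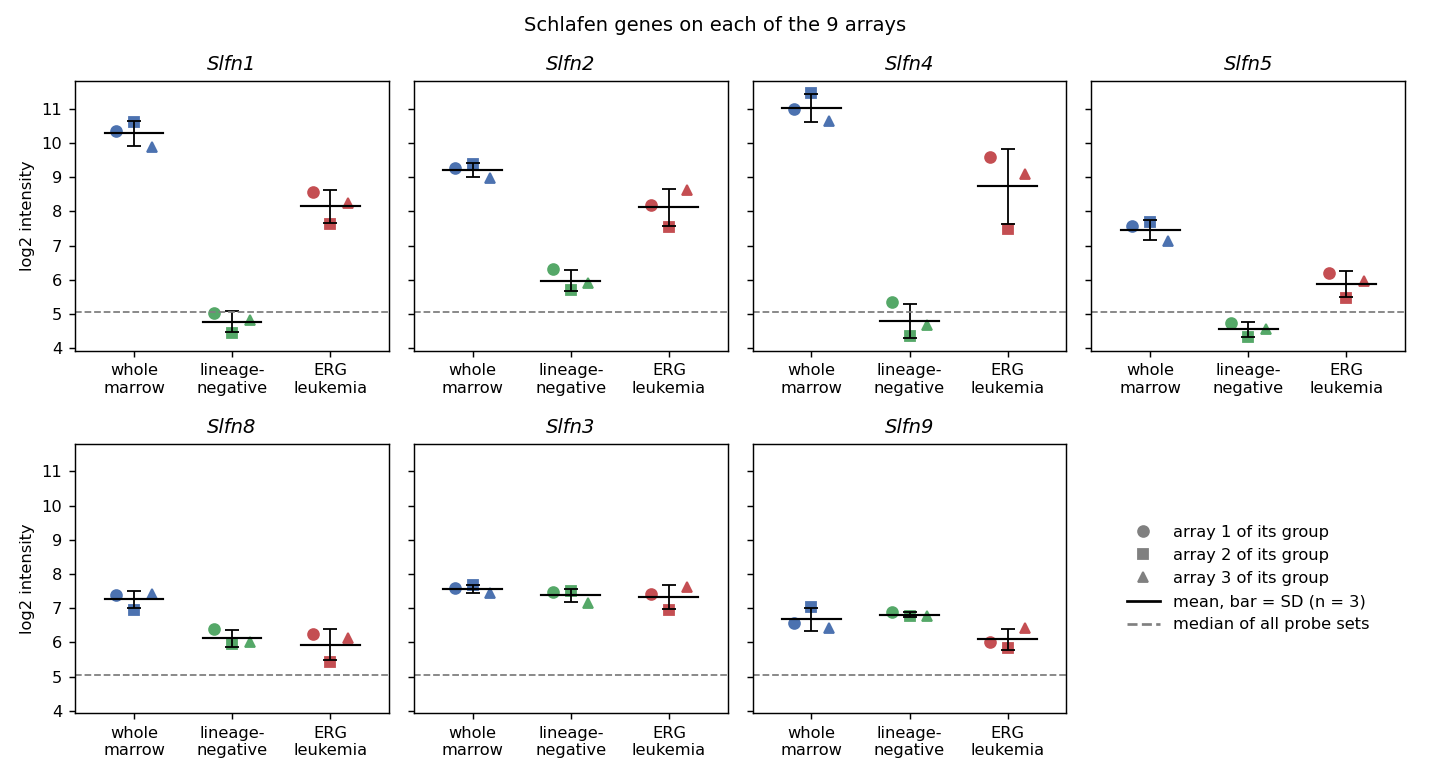
Intensity of each measured Schlafen gene on each of the 9 arrays as log2 values, by group, with the mean as a line, the SD over 3 arrays as a bar and the median of all probe sets (log2 5.06) as a dashed line. Slfn1, Slfn2, Slfn4 and Slfn5 are highest in whole marrow and lowest in lineage-negative marrow with no overlap of groups, while the groups of Slfn3 overlap.

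Slfn1 (Entrez 20555, probe set 10379633), a short form that stops growth when forced into T cells, read 1316.5, 1565.9 and 949.1 on the whole-marrow arrays. It read 32.8, 21.9 and 28.5 in the lineage-negative pools and 380.2, 198.3 and 304.7 in the leukemias. Every leukemia lay above every lineage-negative pool and below every whole-marrow array. Slfn1 fell between lineage-negative and whole marrow by 5.51 ± 0.27 (SE) on the log2 scale (adjusted p = 2.6e-05). The lineage-negative mean, 27.4, lay under the median of all probe sets; with that median in its place the difference is at least 37.4-fold. In leukemia Slfn1 was 4.4-fold lower than in whole marrow (log2 -2.14 ± 0.27, adjusted p = 0.0013). It was 10.4-fold higher in leukemia than in lineage-negative marrow (log2 3.38 ± 0.27, adjusted p = 0.000566), or at least 8.51-fold against the median of all probe sets.

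Slfn2 (Entrez 20556, probe set 10379630), the other short form and the quiescence factor of T cells and monocytes, read 613.6, 667.0 and 502.1 in whole marrow. It read 79.5, 52.2 and 59.8 in lineage-negative marrow and 289.1, 186.5 and 397.0 in leukemia. The groups did not overlap, and all 3 means (590.1, 62.9 and 277.6) were above the median of all probe sets, so the lineage-negative signal was reduced and still measured. Slfn2 was 9.39-fold lower in lineage-negative than in whole marrow (log2 -3.23 ± 0.27, adjusted p = 8.52e-05). In leukemia it was 4.42-fold above lineage-negative marrow (log2 2.14 ± 0.27, adjusted p = 0.00319). It was 2.13-fold below whole marrow (log2 -1.09 ± 0.27, adjusted p = 0.0184). That last call was lost without whole-marrow array 1 (log2 -1.06, adjusted p = 0.0598) and without whole-marrow array 2 (log2 -0.999, adjusted p = 0.0614).

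Slfn4 (Entrez 20558, probe set 10379636), an intermediate form known from activated macrophages and myeloid cells, read 2014.1, 2794.4 and 1591.9 in whole marrow. It read 40.9, 20.5 and 25.7 in lineage-negative marrow and 770.0, 179.8 and 548.9 in leukemia. The groups did not overlap, but the leukemias were spread over 4.28-fold (mean log2 8.73 ± 1.10 SD, n = 3), with leukemia 2 far below the other two. It fell between lineage-negative and whole marrow by 6.22 ± 0.51 on the log2 scale (adjusted p = 8.31e-05); the mean of 27.8 in lineage-negative marrow was under the median of all probe sets, and against that median the difference is at least 62.2-fold. In leukemia Slfn4 was 4.9-fold below whole marrow (log2 -2.29 ± 0.51, adjusted p = 0.0117) and 15.2-fold above lineage-negative marrow (log2 3.93 ± 0.51, adjusted p = 0.00368), the latter at least 12.7-fold against the median of all probe sets. Without leukemia 2 these differences were -1.68 (adjusted p = 0.0106) and 4.55 (adjusted p = 0.000276), so both calls were kept and the sizes moved by over 1.5 times.

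Slfn3 (Entrez 20557, probe set 10379646), the other intermediate form, studied mostly in intestinal epithelium, passed the test in none of the 3 comparisons. It read 193.3, 205.3 and 174.5 in whole marrow, 177.9, 182.7 and 143.1 in lineage-negative marrow and 171.7, 122.6 and 194.7 in leukemia. The groups overlapped, with all group means well above the median of all probe sets. The 95% interval of the log2 difference ran from -0.58 to 0.2 for lineage-negative against whole marrow (adjusted p = 0.446) and from -0.64 to 0.14 for leukemia against whole marrow (adjusted p = 0.36). For leukemia against lineage-negative marrow it ran from -0.45 to 0.33 (adjusted p = 0.903). With cyclic loess between arrays, the lineage-negative value became -0.52 and passed (adjusted p = 0.0347).

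Slfn5 (Entrez 327978, probe set 10379615), an interferon-induced long form that acts in the nucleus, read 189.5, 205.7 and 140.5 in whole marrow. It read 26.7, 20.1 and 23.8 in lineage-negative marrow and 72.9, 44.1 and 62.7 in leukemia. The groups did not overlap, and each lineage-negative pool was under the median of all probe sets. Slfn5 fell between lineage-negative and whole marrow by 2.92 ± 0.21 on the log2 scale (adjusted p = 6.16e-05), at least 5.28-fold against that median. In leukemia it was 3.01-fold below whole marrow (log2 -1.59 ± 0.21, adjusted p = 0.00153). It was 2.51-fold above lineage-negative marrow (log2 1.33 ± 0.21, adjusted p = 0.00817), which is at least 1.76-fold against the median of all probe sets.

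Slfn8 (Entrez 276950, probe set 10389143), a long form, read 168.9, 124.8 and 170.6 in whole marrow, 84.6, 62.5 and 64.2 in lineage-negative marrow and 76.8, 42.8 and 69.5 in leukemia. Whole marrow stood above both other groups, which overlapped each other. Slfn8 was 2.2-fold lower in lineage-negative marrow (log2 -1.14 ± 0.23, adjusted p = 0.00504) and 2.51-fold lower in leukemia (log2 -1.33 ± 0.23, adjusted p = 0.00447) than in whole marrow. Leukemia and lineage-negative marrow did not differ past the threshold (log2 -0.19, 95% interval -0.72 to 0.34, adjusted p = 0.74). Of the 5 genes lower in both comparisons with whole marrow, Slfn8 alone had a leukemia mean outside the range between the wild type means.

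Slfn9 (Entrez 237886, probe set 10389134), the neighbouring long form, read 95.0, 132.0 and 85.0 in whole marrow, 118.9, 109.2 and 110.2 in lineage-negative marrow and 64.4, 57.1 and 86.0 in leukemia. Its lineage-negative values lay within the range of the whole-marrow values, and the difference between these groups was small (log2 0.14, 95% interval -0.28 to 0.57, adjusted p = 0.613). All 3 leukemias were below all 3 lineage-negative pools, and the fall of 0.73 ± 0.19 on the log2 scale passed narrowly (1.65-fold, adjusted p = 0.0485). That call was lost in 10 of 16 alternatives, among them any lineage-negative pool left out, with adjusted p from 0.0263 to 0.145. Against whole marrow the difference was -0.58 ± 0.19 (adjusted p = 0.0525) with overlapping groups. It passed with either rescaling of the arrays, at -0.69 with centring at the 75th percentile (adjusted p = 0.0268) and -0.75 with cyclic loess (adjusted p = 0.0264). It also passed without whole-marrow array 3 (-0.72, adjusted p = 0.0376), without leukemia 3 (-0.75, adjusted p = 0.0216) and with dim genes left out (-0.58, adjusted p = 0.0354).

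**Figure D2:**
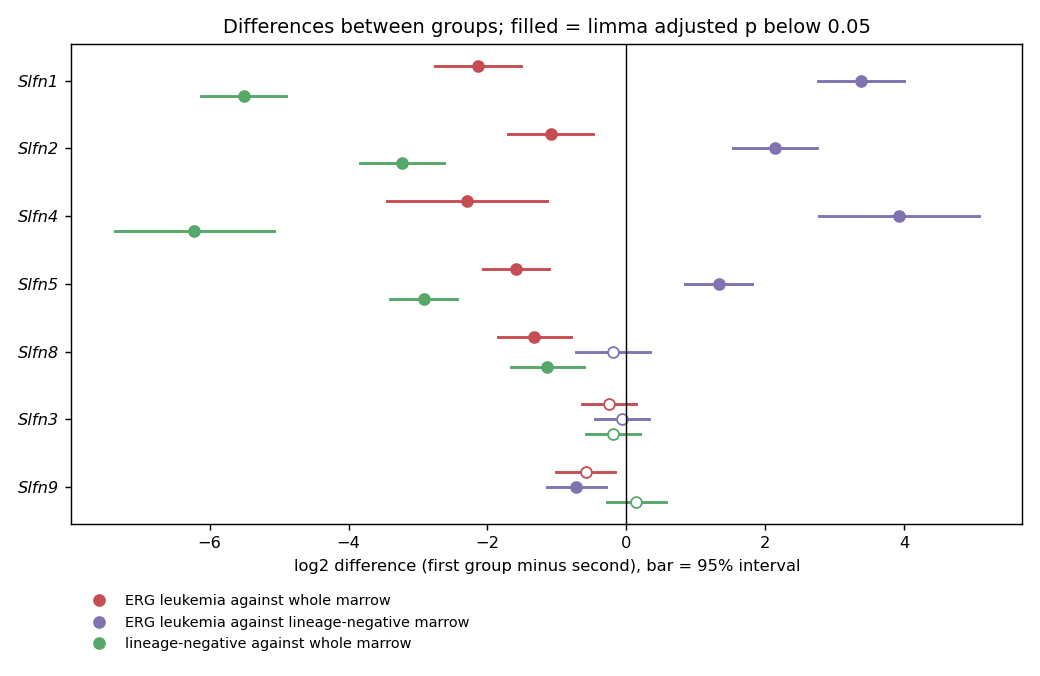
Log2 difference of each measured Schlafen gene in the 3 comparisons, with its 95% interval and filled points where limma's adjusted p was under 0.05. Lineage-negative marrow against whole marrow spans -6.22 for Slfn4 to 0.14 for Slfn9, and Slfn3 stays near 0 in all 3.

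The pair with the most alike upstream sequence thus differed in its levels by group. The log2 intensity of Slfn8 minus that of Slfn9, a pair chosen after its values were seen and given with no test, was 0.83, -0.08 and 1.01 on the whole-marrow arrays. It was -0.49, -0.81 and -0.78 in the lineage-negative pools and 0.25, -0.42 and -0.31 in the leukemias. The lineage-negative pools were the lowest, with no overlap with the other groups; only the change in this difference from group to group can be read, since the probe sets differ.

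Slfn10-ps, between 72.2 and 100.7 on all arrays, passed in no comparison (adjusted p = 0.617, 0.414 and 0.618). Slfn5os, the RNA named as antisense to Slfn5, read 16.6 to 18.4 throughout, under the median of all probe sets, so no difference in it was measurable here.

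The position of the leukemias between the wild type groups was usual for genes of this kind. Of the 2587 genes called lower in lineage-negative than in whole marrow, 2090 (80.8%) had a leukemia mean between the wild type means, as did 4 of the 5 Schlafen genes. Passing the test in both directions was less common: 223 of the 2587 (8.62%) were called both below whole marrow and above lineage-negative marrow in leukemia. Slfn1, Slfn2, Slfn4 and Slfn5 were among them, subject to the calls named above.

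Members also shared the arrays on which they were high or low within a group. Leukemia 2 was the lowest leukemia for 7 of 7 members, against 44.0% of 11005 bright genes. Lineage-negative pool 2 was the lowest pool for 6 of 7 (34.7% of the bright genes) and whole-marrow array 3 the lowest whole-marrow array for 6 of 7 (38.9%). Genes on one array are not independent, so these counts are descriptive.

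Markers of mature neutrophils changed in the same directions as Slfn1, Slfn2, Slfn4 and Slfn5, while Slfn8 and Slfn9 did not rise with them between leukemia and lineage-negative marrow. All 12 of 12 fell between lineage-negative and whole marrow (median log2 -5.25), 11 rose between leukemia and lineage-negative marrow (median 3.99), and 7 fell between leukemia and whole marrow (median -1.36). That last count was 4 without leukemia 2 or any single whole-marrow array, and 12 without lineage-negative pool 2. Their summed intensity was 43107 to 50103 in whole marrow, 780 to 2534 in lineage-negative marrow and 16994 to 26342 in leukemia, with leukemia 2 and pool 2 lowest in their groups, as for most Schlafen genes. In lineage-negative marrow 1 of the 12 had a mean under the median of all probe sets, and 0 were under it on all arrays of any group. The part of neutrophil content in the Schlafen differences was not tested.

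Monocyte and macrophage markers were also lower in lineage-negative marrow. Of 8 measured, 5 fell between lineage-negative and whole marrow (Csf1r, Ccr2, Adgre1, Ctss and Cd14) and 0 passed between leukemia and whole marrow, also 0 in limma at an unadjusted p under 0.05. The 5 became 1 without pool 2 or whole-marrow array 2, 2 without pool 3 and 3 without whole-marrow array 1. Summed, they read 3386 to 5455 in whole marrow, 1296 to 2531 in lineage-negative marrow and 2266 to 5661 in leukemia, lowest again in leukemia 2. Between leukemia and lineage-negative marrow 2 of these 8 rose, Adgre1 (2.62 ± 0.58) and Ctss (2.28 ± 0.42), and 0 fell, with a median of 1.0. Under the alternatives 1 to 6 of them rose. The 7 measured B cell markers all fell in both lineage-negative marrow and leukemia relative to whole marrow, their sums going from 1155 to 4877 in whole marrow to 275 to 432 and 335 to 497. Of 9 T and NK cell markers, 6 fell in each of these comparisons. Their sums were 1294 to 1670 in whole marrow, 766 to 1630 in lineage-negative marrow and 519 to 738 in leukemia. The brightest, Nkg7, had means of 910.4, 910.2 and 376.2 in these groups and was not among the falls in lineage-negative marrow. In lineage-negative marrow 5 of the 9 were under the median of all probe sets on every array. In leukemia 4 of the B cell markers and 4 of the T and NK cell markers were under the median of all probe sets on every array. Of 6 erythroid markers, 4 rose in leukemia against whole marrow (median 1.82) and 3 in lineage-negative against whole marrow (median 1.27). Of 6 markers of eosinophils, basophils and mast cells, 5 fell in leukemia against whole marrow (median -2.15) and against lineage-negative marrow (median -2.88). Of 6 megakaryocyte and platelet markers, 5 rose in lineage-negative against whole marrow (median 2.01), and 3 did so without pool 1 or pool 3. The part of any of these cells in the Schlafen differences was not tested.

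For each member that passed in any comparison, the genes with the most similar profile were found as those with the smallest root mean square difference of centred log2 values over the 9 arrays, among 10537 genes. Slfn1 was nearest to Chil1 (0.18), which encodes a chitinase-like protein of neutrophils and macrophages, then to the integrin Itgam and the protease Mmp25 (0.35 each). Slfn4 was also nearest to Chil1 (0.34), followed by the neutrophil surface protein Cd177 (0.42) and Il1f9 (0.48), an interleukin 1 family cytokine. Chil1 means were 1741.4 in whole marrow, 29.1 in lineage-negative marrow and 326.3 in leukemia. The lineage-negative means of Chil1, Mmp25 (24.1) and Il1f9 (25.6) were under the median of all probe sets, as were those of Slfn1 and Slfn4. The distance between Slfn1 and Slfn4 was 0.44, smaller than from Slfn1 to any other member.

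Slfn2 was nearest to Lilra6 (0.13), a leukocyte receptor, with Pstpip2 (0.16) and Mgst1 (0.20) next, and Slfn5 was its nearest member (0.38). Slfn5 was nearest to Pi16 (0.11), Mxd1 (0.16) and the phagocyte oxidase subunit Ncf1 (0.16). The lineage-negative mean of Pi16 (23.7), like that of Slfn5, was under the median of all probe sets. Slfn8 was nearest to Malt1 (0.14), a protease of immune receptor signalling, with Eif2ak3 (0.14) and Ncoa1 (0.15) next and Slfn3 the nearest member (0.53). Slfn9 was nearest to Rgcc (0.15), Camk1 (0.15) and Emilin1 (0.16), with Slfn3 its nearest member (0.31). Distances depend on how far a gene moves: the root mean square of the centred values was 2.29 for Slfn1, 2.64 for Slfn4 and 0.38 for Slfn9.

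**Figure D3:**
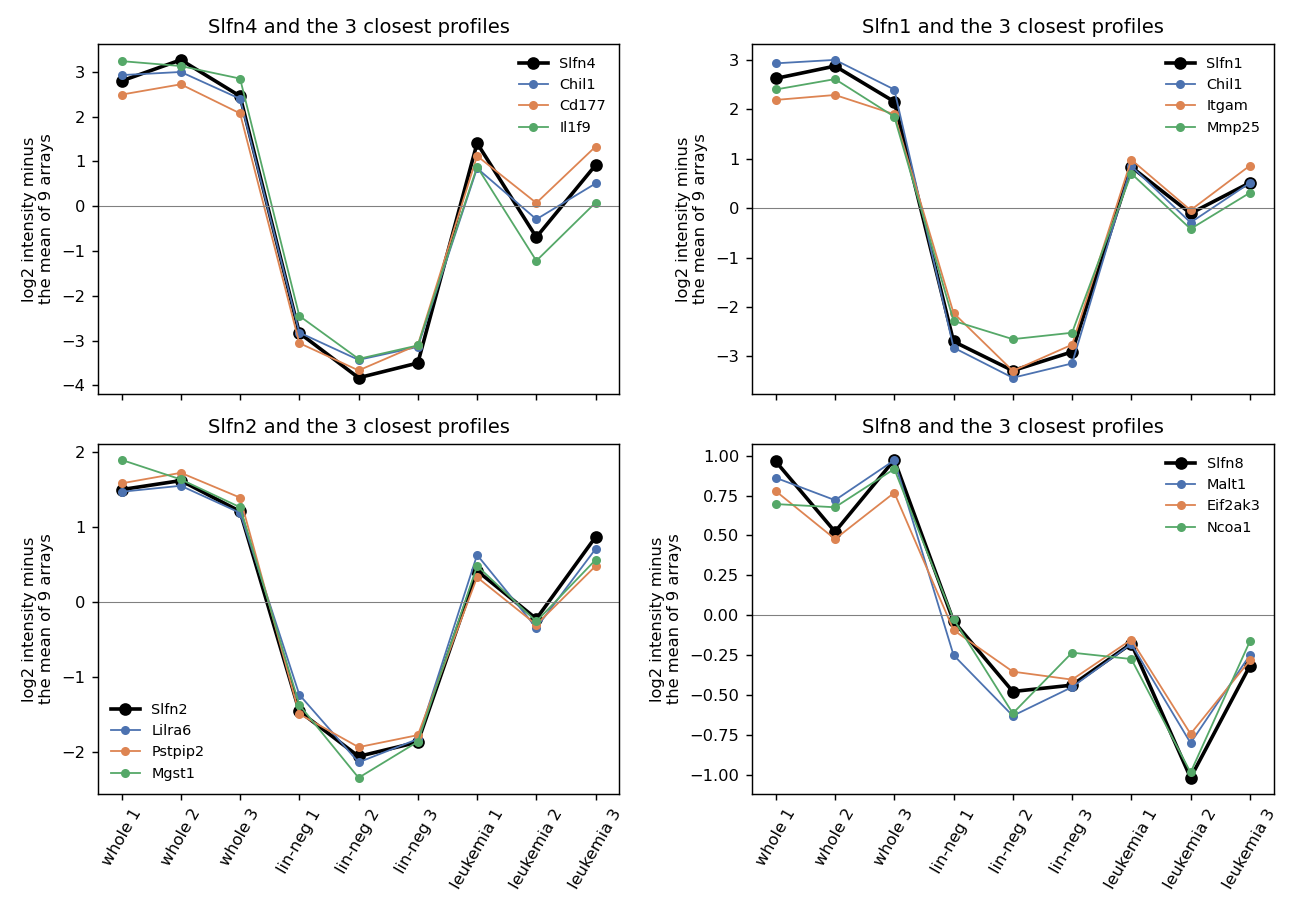
Log2 intensity minus the mean of the 9 arrays for Slfn4, Slfn1, Slfn2 and Slfn8 (black) and for the 3 genes nearest to each by root mean square difference (colours), with the arrays along the axis. The lines for Slfn2 and Lilra6 are 0.13 apart, those for Slfn4 and Il1f9 are 0.48 apart, and leukemia 2 is the lowest leukemia in every panel.

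Interferon-induced genes are the class that holds several Schlafen genes. Of 26 measured, 14 fell, 1 rose and 11 did not pass in leukemia against whole marrow, with a median log2 difference of -0.76. Over all genes 9.93% were called lower and 14.6% higher there. The count of falls ranged from 11 to 17 under the alternatives. The largest falls were Rtp4 (-2.23 ± 0.28, adjusted p = 0.00124), Oas2 (-2.12 ± 0.31, adjusted p = 0.00212), an oligoadenylate synthetase of the antiviral response, and Ifi27l2a (-1.97 ± 0.22, adjusted p = 0.000968). Lgals3bp, a secreted galectin-binding protein, was the one that rose (1.01 ± 0.10, adjusted p = 0.000754). In lineage-negative against whole marrow 16 fell, 1 rose (again Lgals3bp, by 1.54 ± 0.10) and 9 did not pass, with a median of -0.77. The members behind these counts differed in part: Usp18 was at -1.51 in leukemia and -0.14 in lineage-negative marrow, and Ifit3 at -0.35 and -1.93. In lineage-negative marrow Oas2 fell by 3.23 ± 0.31 (adjusted p = 0.000144), Ifi27l2a by 2.44 ± 0.22 (adjusted p = 0.000119) and Oas3 by 2.3 ± 0.27 (adjusted p = 0.000348). The lineage-negative means of Oas2 (29.4) and Ifi27l2a (26.2) were under the median of all probe sets, so these sizes are held down by background. The 16 became 9 without pool 3 and 10 without whole-marrow array 1.

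Between leukemia and lineage-negative marrow, 2 of the 26 interferon-induced genes rose and 3 fell (median 0.12), beside 2.95% of all genes called higher and 5.74% lower. Ifit3 rose (1.57 ± 0.27, adjusted p = 0.0115), as did Rsad2 (2.06 ± 0.53, adjusted p = 0.0482), and Usp18, which removes the ubiquitin-like protein ISG15, fell (-1.37 ± 0.18, adjusted p = 0.00375). The others that fell were Bst2 (-0.69) and Lgals3bp (-0.54). Bst2 lost its call with cyclic loess, without lineage-negative pool 1 or 2 and without leukemia 1 or 2. Lgals3bp lost its call with 75th percentile centring and without leukemia 3. Rsad2 lost its call without any lineage-negative pool (adjusted p = 0.138, 0.112 and 0.119), without whole-marrow array 1 or 3 and without leukemia 2 or 3. The count of rises was 4 with either rescaling and 1 without leukemia 3, any lineage-negative pool or whole-marrow array 1.

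Among 14 measured interferon receptors and signalling genes, 7 fell and 1, Tyk2, rose in leukemia against whole marrow (median -0.57). The falls included the transcription factor Irf1 (-1.47 ± 0.31, adjusted p = 0.0101), the interferon gamma receptor chain Ifngr2 (-1.31 ± 0.31, adjusted p = 0.0157) and Irf7 (-0.80 ± 0.20, adjusted p = 0.0198). Ifngr2 and Irf7 lost their calls without whole-marrow array 1 or 2, and the count fell to 3 without either array and to 4 without leukemia 1. The rise of Tyk2 (0.34 ± 0.10, adjusted p = 0.0372) was lost with both rescalings. In lineage-negative against whole marrow 8 fell (5 without pool 3), with a median of -0.54, led by Ifngr2 (-1.71 ± 0.31), Irf7 (-1.55 ± 0.20) and Irf1 (-1.38 ± 0.31). Between leukemia and lineage-negative marrow limma called 0 of the 14, with 3 higher and 0 lower at an unadjusted p under 0.05.

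Of 12 genes listed here under quiescence, the process tied to Slfn2, 5 fell in leukemia against whole marrow and 2 rose (median -0.76). The antiproliferative factors Btg2 (-1.27 ± 0.19, adjusted p = 0.00223) and Btg1 (-1.10 ± 0.13, adjusted p = 0.00119) fell, together with the cytokine receptor Il7r (-2.11 ± 0.51, adjusted p = 0.0173), Klf2 and Tob1. Il7r lost its call without whole-marrow array 1 (adjusted p = 0.061), when the count of falls was 3. The rises of Foxo3 (0.45) and Tsc1 (0.33) were both lost with either rescaling. In lineage-negative against whole marrow 6 fell and Tsc1 rose (median -0.93), with Btg2 at -1.85 ± 0.19, Btg1 at -1.84 ± 0.13 and Klf2 at -1.10 ± 0.12. Between leukemia and lineage-negative marrow Tsc22d3 (0.93 ± 0.15, adjusted p = 0.00859), Btg1 (0.74 ± 0.13, adjusted p = 0.0142) and the cell cycle inhibitor Cdkn1b (0.71 ± 0.16, adjusted p = 0.0318) rose and 0 fell, with 1 lower in limma at an unadjusted p under 0.05; only Tsc22d3 passed without lineage-negative pool 1.

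Of 4 measured genes of transfer RNA cleavage and protection, 2 rose in leukemia against whole marrow and 2 did not pass. Of all genes, 14.6% were called higher there and 21.7% in lineage-negative against whole marrow. A list of 4 genes is too short to set its share against these. The tRNA methyltransferase Nsun2 (1.02 ± 0.09, adjusted p = 0.000514) and the tRNA-processing nuclease Elac2 (0.93 ± 0.10, adjusted p = 0.000822) were the 2 that rose, and both also rose in lineage-negative against whole marrow, by 1.31 ± 0.09 and 1.28 ± 0.10. Rnh1, the inhibitor of angiogenin-type ribonucleases, and the tRNA methyltransferase Trdmt1 were at 0.10 and 0.01 in leukemia and at -0.22 and -0.26 in lineage-negative marrow, none of them past the threshold. Limma called 0 of the 4 between leukemia and lineage-negative marrow, with 2 lower and 0 higher at an unadjusted p under 0.05.

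The genes beside the cluster on chromosome 11 had differences centred near 0, but many of them were dim. Ccl1, Tmem132e, Cct6b, Fndc8, Unc45b, Rasl10b, Gas2l2, Mmp28 and Heatr9 had every group mean under the median of all probe sets. Differences in these genes, among them the falls of Mmp28 and Tmem132e given below, lie in the range of background. Of 19 measured among the 10 protein-coding genes on either side, 3 fell and 2 rose in leukemia against whole marrow, with a median of -0.07. Over all genes 9.93% were called lower and 14.6% higher in that comparison. Nle1, a ribosome assembly factor (0.88 ± 0.19, adjusted p = 0.0101), and the DNA ligase Lig3 (0.65 ± 0.14, adjusted p = 0.0112) rose. 1700020L24Rik (-1.09 ± 0.32, adjusted p = 0.0358), the ubiquitin ligase Rffl (-0.71 ± 0.13, adjusted p = 0.00573) and Mmp28 (-0.26) fell; the count of falls was 1 without leukemia 1, leukemia 2, pool 3 or whole-marrow array 2. In lineage-negative against whole marrow 3 fell (1700020L24Rik, Rffl and Tmem132e) and 2 rose (Nle1 and Lig3), with a median of -0.06. Of all genes, 13% were called lower and 21.7% higher in that comparison. Between leukemia and lineage-negative marrow limma called 0 of 19, with 0 higher and 1 lower at an unadjusted p under 0.05.

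**Figure D4:**
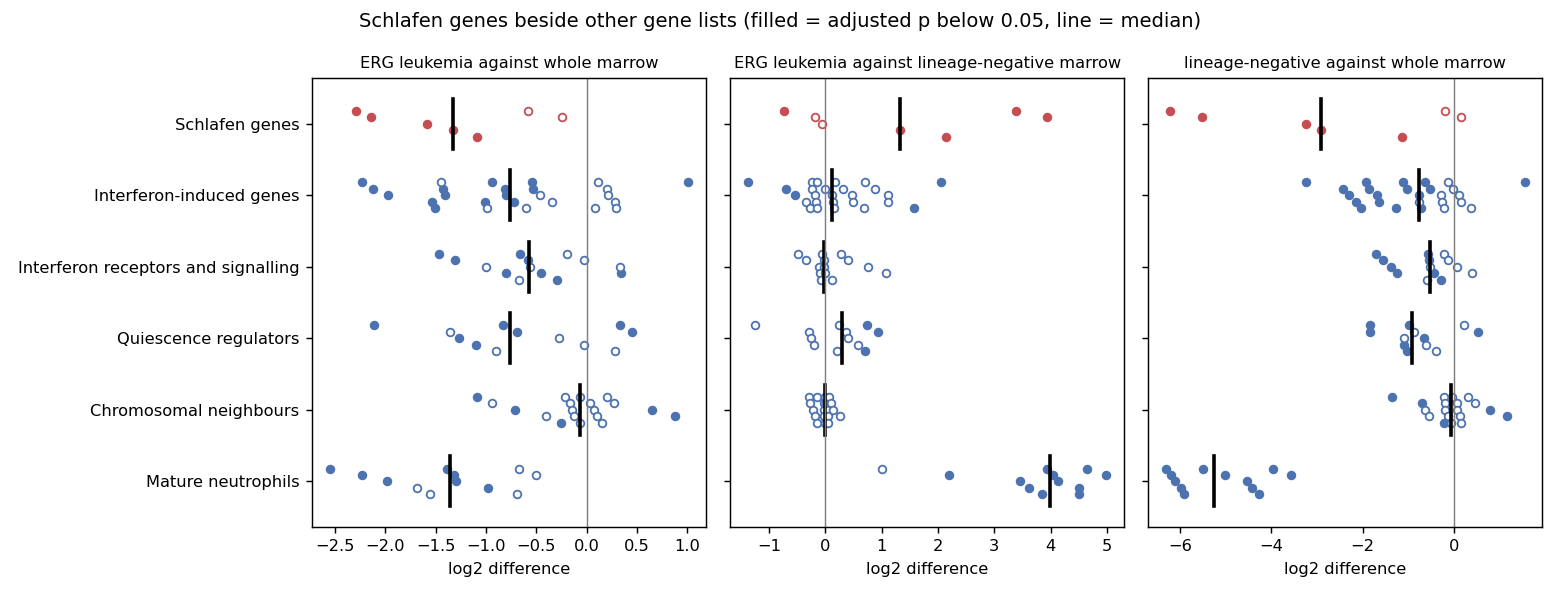
Log2 differences in the 3 comparisons for the Schlafen genes and for 5 other gene lists, 1 point per gene, filled where the adjusted p was under 0.05, with the median as a vertical line. Schlafen medians lie at -1.33, 1.33 and -2.92, and those of the mature neutrophil markers at -1.36, 3.99 and -5.25.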

How the data were processed

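Intensity values of 28853 probe sets were deposited by the authors on a linear scale, and the submitters' processing notes name RMA and Partek; the sources used here give no version or genome build. RMA corrects background, equalizes arrays and summarizes probes, so dim values lie near a floor and small folds of dim genes are compressed. Genes were named for the 21789 probe sets with 1 symbol in the platform's gene table (1621 have several, 5443 none), and each gene was represented by its brightest probe set on average, leaving 19938 genes. Log2 values were fitted in 1 model of 3 groups with limma 3.58.1 (lmFit, contrasts.fit, eBayes; R 4.3.3), 2-sided, with 6 residual and 2.62 prior degrees of freedom, and Benjamini-Hochberg adjustment over all genes. The procedure was tested on simulated data. Groups follow the sample labels; 2 of the leukemia labels differ by 1 digit and were taken as separate mice. The number of arrays limits the precision.

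The members, gene lists and motifs were chosen with earlier results of these data known. All members were named; from each list, at most the 3 largest differences past the threshold in each comparison were chosen, and further genes were named after their values were seen, to account for small counts. Alternatives were 75th percentile centring, cyclic loess, 16 added before log2, dim genes left out, the mean of a gene's probe sets, an intensity trend, only the 2 groups compared, each array left out, and a replicate block. Promoter windows come from RefSeq, GRCm38.p6. Plots were drawn with matplotlib 3.10.9.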

Additional observations from a re-analysis of the deposited data

How the results depend on the processing

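Of 343 values of single Schlafen genes under alternative settings, 325 kept their side of the threshold, 12 lost a call and 6 gained one. Among called values 0 reversed, but some values that never passed changed sign. In leukemia against lineage-negative marrow Slfn3 ran from -0.202 to 0.132 and Slfn8 from -0.355 to 0.068. In lineage-negative against whole marrow Slfn9 ran from -0.178 to 0.327. The count of Schlafen genes lower in leukemia than in whole marrow, 5, ranged from 4 to 6, and that in lineage-negative against whole marrow, 5, from 5 to 6. The count that changed by over 1.5 times was that of Schlafen genes lower in leukemia than in lineage-negative marrow, which is Slfn9 alone: it was 0 with 75th percentile centring, with cyclic loess, with 16 added before log2 and with an intensity trend, and ranged from 0 to 1 when single arrays were left out. With 16 added, which compresses dim values by construction, Slfn1 and Slfn4 were at 2.79 and 3.33 (log2) in leukemia against lineage-negative marrow; in lineage-negative against whole marrow Slfn1, Slfn4 and Slfn5 were at -4.86, -5.57 and -2.29, with all calls kept. Whole-marrow and lineage-negative arrays share numbers in their labels but come from different mice. Correlations of deviations of same-numbered arrays were 0.312, -0.009 and -0.009, and those of arrays with different numbers ran from -0.203 to 0.147. Deviations from means of 3 arrays are too few to settle pairing. The numbers were not used as pairs in the main model because the mice differ. With the number as a replicate block, 5 Schlafen genes were lower and 0 higher in lineage-negative marrow, and no member's call changed. Over all genes, the block gave 4346 higher and 2547 lower. Array signal limits what can be read of Slfn1, Slfn4 and Slfn5 in lineage-negative marrow, whose means lie under the median of all probe sets.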
